A study of Mus musculus with 4 samples.

Results

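A set of 10 genes that mark the pericentral zone of the liver lobule were followed across hepatocyte nuclei of mice with and without a hepatocyte-specific knockout of Nampt. They were taken from a list of names, Glul, Slc1a2, Lgr5, Axin2, Tbx3, Cyp2e1, Cyp1a2, Oat, Slc22a3 and Gulo, chosen with earlier results of these data known. All 10 were found among the 54464 genes of the count matrix. Each had at least 1 UMI (unique molecular identifier, the tag that marks 1 captured RNA molecule) in the hepatocyte nuclei of each of the 6 mice. The study compared single-nucleus RNA-Seq (snRNA-Seq) of liver from 3 WT and 3 HNKO mice, females aged 8 to 12 weeks at the start, after 6 weeks on a purified control diet (PD) with plain drinking water. By the study's methods, bile was collected from this cohort through a bile duct catheter under isoflurane before the livers were taken. HNKO (hepatocyte-specific Nampt knockout) mice carried floxed Nampt on both alleles and Alb-Cre, a Cre recombinase driven by the albumin promoter, and the WT mice were floxed littermates. From each mouse 4250 nuclei were sorted, marked with a hashtag antibody and pooled across mice into 2 RNA libraries, and each nucleus is assigned to its mouse by the authors' hashtag call.

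Hepatocytes divide their work along the path of the blood from the portal tract to the central vein. Wnt ligands from the endothelium of the central vein keep beta-catenin signalling active in the hepatocytes next to it, and these cells clear the last ammonia by making glutamine and carry much of the cytochrome P450 metabolism, while urea and glucose production lie nearer the portal tract. Glul encodes glutamine synthetase, Slc1a2 the glutamate transporter GLT-1 and Oat ornithine aminotransferase, all parts of ammonia and glutamate handling. Lgr5, a receptor for R-spondins, Axin2, a negative feedback regulator of beta-catenin, and Tbx3, a transcription factor, are Wnt target genes. Cyp2e1 and Cyp1a2 are cytochrome P450 enzymes that oxidise ethanol, acetaminophen and caffeine, Slc22a3 is an organic cation transporter, and Gulo carries out the last step of vitamin C synthesis.

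All 10 are protein-coding genes on separate loci of GRCm38. Glul lies at chr1:153899944-153909723 and Slc1a2 at chr2:102658659-102790784, both on the plus strand. Lgr5 lies at chr10:115450311-115587780 on the minus strand, Axin2 at chr11:108920349-108950783 and Tbx3 at chr5:119670669-119684724 on the plus strand. Cyp2e1 lies at chr7:140763739-140774987 on the plus strand, and Oat at chr7:132557478-132576398, Cyp1a2 at chr9:57676937-57683703, Slc22a3 at chr17:12418960-12507704 and Gulo at chr14:65986786-66009207 on the minus strand.

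Promoter sequence was matched by symbol for 7 of the 10 genes (250 bases before the transcription start, RefSeq, GRCm38.p6), and the letters CTTTGAT or CTTTGAA, which are bound by the TCF/LEF factors that carry the Wnt signal to DNA, were searched on both strands. Slc1a2 held CTTTGAT on the minus strand, its first base 207 bases before the start, Cyp2e1 held CTTTGAA on the plus strand at 135 bases, and Cyp1a2 held CTTTGAA on the minus strand at 244 bases. Among all 32851 promoters of this length in the RefSeq set, 3.21% held CTTTGAT, 4.46% held CTTTGAA and 7.48% held at least 1 of them, so that 3 of 7 is a count of letters in a short list and not a measured site. The 3 promoters with a match are shown with the matched bases in capitals (as the reverse complement where the match is on the minus strand), with that of Glul, whose UMIs define a comparison made here. Each is written 5′ to 3′ on the strand of its gene, at chr1:153899679-153899928 (+) for Glul, chr2:102706188-102706437 (+) for Slc1a2, chr7:140763569-140763818 (+) for Cyp2e1 and chr9:57683656-57683905 (-) for Cyp1a2. In the last 3 the RefSeq start lies inside the gene as annotated above, so that the sequence overlaps it, wholly for Slc1a2 and in part for Cyp2e1 and Cyp1a2.
Glul: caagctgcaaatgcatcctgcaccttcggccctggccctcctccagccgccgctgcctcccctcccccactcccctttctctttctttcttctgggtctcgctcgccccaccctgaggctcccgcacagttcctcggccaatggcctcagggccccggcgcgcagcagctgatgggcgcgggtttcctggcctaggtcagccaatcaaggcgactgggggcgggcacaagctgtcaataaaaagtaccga
Slc1a2: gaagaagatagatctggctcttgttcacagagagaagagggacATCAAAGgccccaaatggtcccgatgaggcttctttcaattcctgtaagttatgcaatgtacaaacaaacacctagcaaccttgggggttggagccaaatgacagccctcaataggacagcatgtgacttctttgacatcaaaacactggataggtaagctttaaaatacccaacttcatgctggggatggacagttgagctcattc
Cyp2e1: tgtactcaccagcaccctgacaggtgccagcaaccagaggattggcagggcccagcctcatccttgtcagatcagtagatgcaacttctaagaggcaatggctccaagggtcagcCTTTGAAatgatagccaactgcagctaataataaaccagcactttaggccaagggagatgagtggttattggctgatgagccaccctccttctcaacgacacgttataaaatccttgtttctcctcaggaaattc
Cyp1a2: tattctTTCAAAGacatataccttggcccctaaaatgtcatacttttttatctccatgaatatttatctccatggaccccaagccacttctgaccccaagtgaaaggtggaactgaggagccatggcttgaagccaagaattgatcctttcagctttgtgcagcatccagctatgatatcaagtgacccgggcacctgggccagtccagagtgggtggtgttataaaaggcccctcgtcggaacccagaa

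The matrix held 5193 nuclei, which is 20.4% of those sorted, with 629 to 1063 nuclei and 3766532 to 7763269 UMIs per mouse, and no barcode was shared between mice. Of these, 4410 nuclei fell in the 13 clusters that the authors named as hepatocytes, and 390 of them (8.84%) in the 3 clusters whose names begin with Central. Central 1 held 218 nuclei of several mice, whereas 98.9% of the 94 nuclei of Central HNKO 1 came from HNKO mouse 1 and 100% of the 78 nuclei of Central HNKO 2 from HNKO mouse 3. In all, 9 of the 13 hepatocyte clusters drew over 90% of their nuclei from 1 mouse, so cluster and mouse cannot be told apart there. Hepatocyte nuclei were deeper in HNKO mice (medians of 5786, 5175 and 4800 UMIs) than in WT mice (3584, 3572 and 4162 UMIs), and 19.4% to 21.6% of their UMIs were spliced against 21.1% to 22.6% in WT mice. The 6 hepatocyte markers summed to 21027 to 27246 CPM (UMIs scaled to a total of 1000000 UMIs for the nuclei summed) in WT and 9325 to 24646 CPM in HNKO hepatocytes. Nampt, the targeted gene, was at 84.8, 105 and 96.9 CPM in hepatocytes of the 3 WT mice and at 84.1, 148 and 90.8 CPM in the 3 HNKO mice. These 3′ counts cover spliced and unspliced RNA of the whole gene and not the deleted part, so they do not check the genotype.

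The first question was how closely the 10 genes follow the clusters named Central. Because the authors' clusters were built from these nuclei and genes, the contrast is a description and carries no test. The paper names Slc1a2 as a central marker of hepatocyte zonation, so its rank here may not be independent of the cluster names. All 10 genes had a higher level in Central than in other hepatocyte clusters in 6 of 6 mice. Some of these values rest on few UMIs. Tbx3 had 1 Central UMI in WT mouse 1 and 2 in WT mouse 3. Oat had 2 in WT mouse 1, and Axin2 had 3 each in WT mouse 2 and WT mouse 3. As the geometric mean of the ratios within each mouse, Slc1a2 was 108-fold higher (SD 0.76 on the log2 scale, n = 6 mice), Slc22a3 83.3-fold (SD 1.39) and Glul 32.2-fold (SD 0.49). The ratio was 10.6 for Lgr5 (SD 0.32), 9.87 for Oat (SD 0.81), 7.73 for Axin2 (SD 1.13) and 4.96 for Cyp1a2 (SD 0.60). It was 4.41 for Gulo (SD 0.26), 3.74 for Tbx3 (SD 1.59) and 3.24 for Cyp2e1 (SD 0.32). Neighbours in this order differed by less than the larger SD of the pair, apart from the step from Glul to Lgr5. Over the pooled nuclei Slc22a3 stood first, 150-fold higher (567 against 3.79 CPM, with HNKO mouse 1 at 1155 CPM in Central nuclei), before Slc1a2 at 96.4-fold (4088 against 42.4 CPM), and Tbx3 (5.77) stood above Cyp1a2 (4.95) and Gulo (4.21).

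The genes therefore differed in how much of their hepatocyte RNA lay in the Central nuclei, which held 7.72% of hepatocyte UMIs as a mean over mice. Those nuclei held 87.7% ± 7.49 of the Slc1a2 UMIs (mean ± SD over 6 mice), 83.5% ± 12.5 of the Slc22a3 UMIs and 69.9% ± 13.5 of the Glul UMIs. The shares were 45.8% ± 12.9 for Lgr5, 44.2% ± 20.9 for Oat, 39.2% ± 15.9 for Axin2, 29.9% ± 11.5 for Cyp1a2 and 26.5% ± 16.7 for Tbx3. Of the Gulo UMIs 26.0% ± 6.23 and of the Cyp2e1 UMIs 21.5% ± 9.58 lay there, and in all 6 mice most RNA of Cyp1a2, Gulo and Cyp2e1 was in hepatocytes outside the Central clusters.

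**Figure D1:**
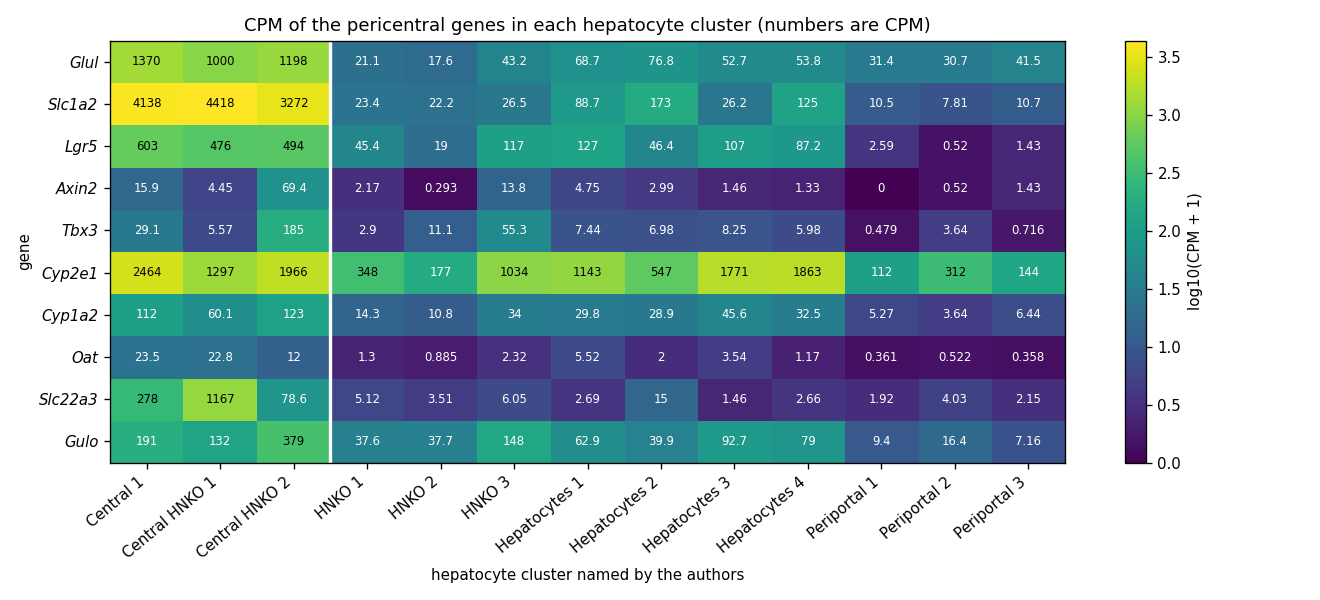
Level of each pericentral gene (rows) in each of the 13 hepatocyte clusters named by the authors (columns), colour on a log10(CPM + 1) scale and the CPM printed in each field, with the 3 Central clusters left of the white line. Slc1a2 is at 3272 to 4418 CPM in the Central clusters and at most 173 CPM elsewhere, while Cyp2e1 reaches 1863 CPM in Hepatocytes 4.

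Across single clusters, Glul, Slc1a2, Lgr5, Cyp1a2, Oat and Slc22a3 were higher in every Central cluster than in every other hepatocyte cluster. Oat had only 5.19 UMIs in Central HNKO 2. Glul ranged from 999.7 to 1370 CPM in the Central clusters and from 17.6 to 76.8 CPM in the others. Lgr5 ranged from 476 to 603 CPM against 0.52 to 127 CPM, and in the 3 Periportal clusters it was at 0.52 to 2.59 CPM. Cyp2e1 was graded: it was at 1297 to 2464 CPM in the Central clusters, at 1771 CPM in Hepatocytes 3 and 1863 CPM in Hepatocytes 4, both above Central HNKO 1, and at 112 to 312 CPM in the Periportal clusters. Gulo was at 148 CPM in the cluster HNKO 3, above the 132 CPM of Central HNKO 1. Tbx3 was the least regular by this measure, with 6 other clusters above the lowest Central cluster, against 2 for Axin2, 2 for Cyp2e1 and 1 for Gulo. The lowest was Central HNKO 1 for each of these genes, and 98.9% of its nuclei came from HNKO mouse 1. Tbx3 had 5 UMIs there and Axin2 4, so their crossings rest on few counts. Cluster and mouse cannot be told apart in the crossings of Cyp2e1, Gulo, Tbx3 and Axin2. Within each of the 6 mice all of them were higher in Central nuclei, for Tbx3 and Axin2 on as few as 1 and 3 Central UMIs.

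The 3 Central clusters differed from each other in single genes. Slc22a3 was at 1167 CPM in Central HNKO 1 but at 278 CPM in Central 1 and 78.6 CPM in Central HNKO 2. Tbx3 showed the other order, at 185 CPM (80 UMIs) in Central HNKO 2. It was at 29.1 CPM (33 UMIs) in Central 1 and 5.57 CPM (5 UMIs) in Central HNKO 1. Axin2 followed this order with 69.4, 15.9 and 4.45 CPM (30, 18 and 4 UMIs). Since each Central HNKO cluster is nearly all 1 mouse, these are differences between mouse 1 and mouse 3 as much as between clusters.

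Per mouse, the Central to other ratio of Glul was 21.0, 23.8 and 28.1 in WT mice and 47.3, 36.9 and 46.0 in HNKO mice. That of Cyp2e1 was 2.54, 2.96 and 2.56 in WT mice and 3.78, 3.85 and 4.17 in HNKO mice. For both genes every HNKO ratio lay above every WT ratio. This was seen for 2 of the 8 members that could be compared, both upward, while 10.8% of 4303 genes had ratios that did not overlap between the genotypes in either direction. For the other genes the ratios of the mice overlapped, and they spread widely for Tbx3 (1.05 to 13.7) and Slc22a3 (18.1 to 271). All these ratios depend on where the cluster border fell in each mouse, which cannot be told apart from a change of level.

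**Figure D2:**
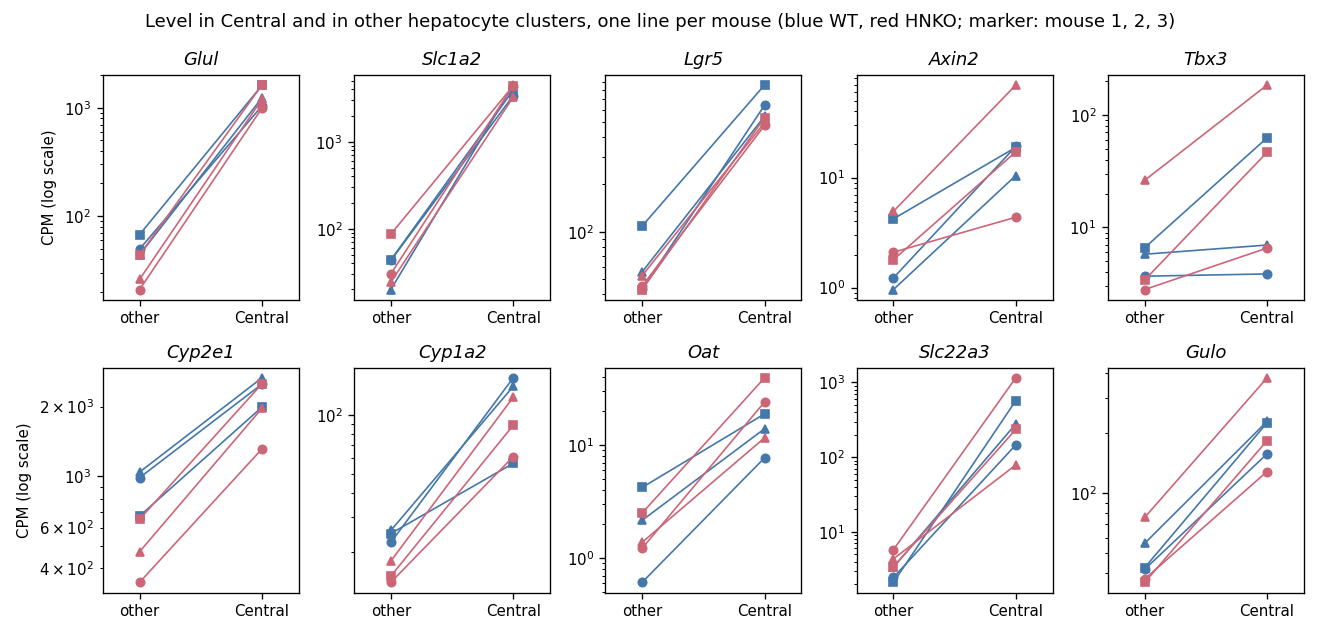
CPM (log scale, a separate axis for each gene) in the other hepatocyte clusters and in the Central clusters, with 1 line per mouse, blue for WT, red for HNKO and circle, square and triangle for mouse 1, 2 and 3. Every line rises, from a ratio of 1.05 for Tbx3 in WT mouse 1 (on 1 Central UMI) to 271 for Slc22a3 in WT mouse 2.

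Over the 13 hepatocyte clusters the levels of some members ran closely together (Pearson's r of log2(CPM + 1), which shares libraries and nuclei between points and is given as a description). Glul was closest to Slc1a2 (r = 0.955) and Oat (0.921), and Lgr5 to Cyp1a2 (0.966) and Gulo (0.938), whereas Tbx3 and Slc22a3 were the least alike (0.415). Among genes outside the list, those most like Glul were AW549542 (0.958), Kif26b (0.951), Nkd1 (0.947), a feedback inhibitor of Wnt signalling, Gna14 (0.942), a G protein alpha subunit, and the unnamed gene ENSMUSG00000106871 (0.938). Those most like Cyp2e1 were ENSMUSG00000118168 (0.946), 1700024B18Rik (0.943), Esrrg (0.930), a nuclear receptor, Slc16a7 (0.926), a monocarboxylate transporter, and Notum (0.911), a secreted enzyme that inactivates Wnt proteins.

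A second view of zonation did not use the clusters. Each hepatocyte nucleus was thinned to 1000 UMIs, which kept all 4410, and the 426 nuclei (9.66%) with at least 1 Glul UMI were compared with the 3984 without, summed per mouse and class. At an adjusted p under 0.05 (edgeR's quasi-likelihood test, mouse as a block), 4.12% of the 4030 genes tested were higher and 3.08% lower. Of the other 9 genes 6 passed the filter on low counts, 10 UMIs at the median depth of the sums (32.2 CPM) in at least 6 of the 12 sums. Slc1a2, Lgr5, Cyp2e1 and Gulo did so in every sum, and all 4 were called higher, in 6 of 6 mice each. Slc22a3 passed through the Glul-positive sums alone and Cyp1a2 through 5 Glul-positive sums and 1 Glul-negative sum, so that the filter had already asked for a higher level there. Without the filter all 9 genes were tested, and 7 were called higher, where 0.415% of 19539 genes were higher and 1.34% lower. The median log2 fold change of the 9 was then 2.26, against -0.55 over all genes. The balance of calls turned with the setting, from 166 higher and 124 lower to 81 and 262 without the filter, and to 108 and 169 with at least 2 Glul UMIs (median over all genes -0.12).

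Slc1a2 was at 1409, 1773 and 1967 CPM in Glul-positive nuclei of the 3 WT mice and at 232, 132 and 156 CPM in their Glul-negative nuclei. In HNKO mice it was at 3845, 2769 and 2986 CPM against 287, 151 and 129 CPM. The classes did not overlap, and the log2 fold change was 3.83 (SE 0.11, edgeR adjusted p = 2.71e-111). Slc22a3 was at 45.5, 227 and 148 CPM in WT and 1000.0, 183 and 84.5 CPM in HNKO Glul-positive nuclei, against at most 31.0 CPM in Glul-negative nuclei of any mouse. Without the filter its log2 fold change was 4.38 (SE 0.28, edgeR adjusted p = 4.32e-50), with HNKO mouse 1 far above the other mice.

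Lgr5 was at 318, 547 and 279 CPM in Glul-positive nuclei of WT mice and 437, 413 and 437 CPM in those of HNKO mice, against 47.6 to 110 CPM in Glul-negative nuclei. It rose by 2.71 on the log2 scale (SE 0.18, edgeR adjusted p = 5.40e-38). Gulo, at 144 to 310 against 40.5 to 85.1 CPM, rose by 1.71 (SE 0.23, edgeR adjusted p = 1.17e-10), and Cyp1a2, at 28.2 to 169 against 8.10 to 36.9 CPM, by 1.68 without the filter (SE 0.35, edgeR adjusted p = 0.000281), on only 33 UMIs in the positive class. Cyp2e1 had the smallest difference. It was at 1477, 1480 and 1902 against 1027, 745 and 1153 CPM in WT mice and at 1014, 1827 and 1761 against 395, 635 and 544 CPM in HNKO mice, a log2 fold change of 1.18 (SE 0.10, edgeR adjusted p = 6.48e-25). Without mouse as a block the adjusted p was 0.067 for Cyp2e1 and 0.080 for Cyp1a2.

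Axin2 (10 UMIs in Glul-positive and 17 in Glul-negative nuclei), Tbx3 (23 and 57) and Oat (10 and 10) did not pass the filter. Without it Tbx3 was higher by 1.85 on the log2 scale (SE 0.44, edgeR adjusted p = 0.00238), and Axin2 (2.26, adjusted p = 0.0812) and Oat (2.68, adjusted p = 0.0520) were not called. The call of Tbx3 did not hold in every mouse. Tbx3 was higher in Glul-positive nuclei of 4 mice and lower in 2, WT mouse 1 and HNKO mouse 1, with 0 UMIs in those nuclei. HNKO mouse 3 alone held 14 of the 23 UMIs of Tbx3 in Glul-positive nuclei. Axin2, Tbx3 and Oat have too few UMIs per nucleus to rank nuclei by them. Oat had only 107 UMIs in all hepatocyte nuclei, many of them fractions that Alevin shared between genes, and its values are uncertain.

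**Figure D3:**
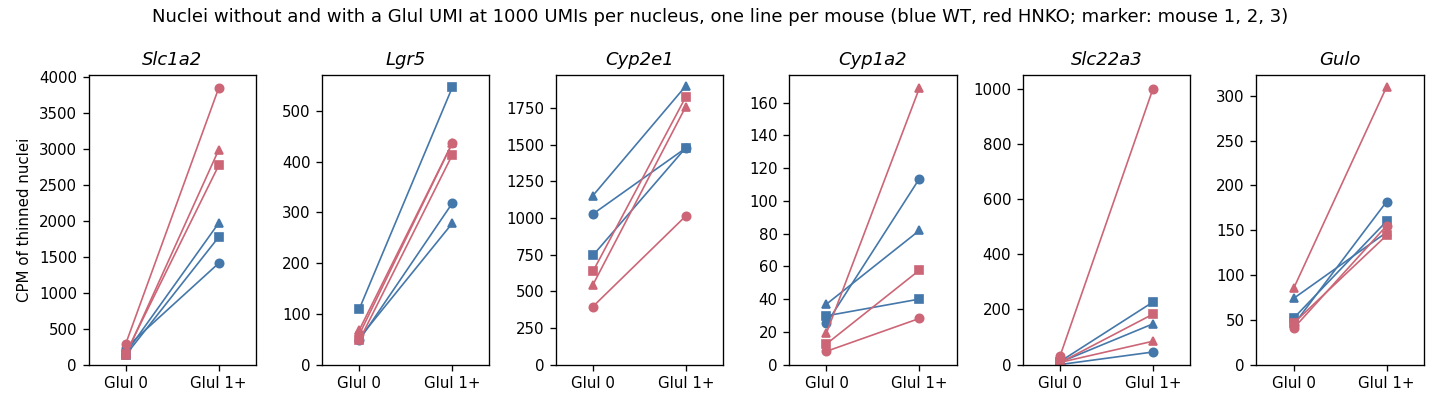
CPM of 6 pericentral genes in hepatocyte nuclei without (Glul 0) and with (Glul 1+) a Glul UMI, all nuclei thinned to 1000 UMIs, with 1 line per mouse, blue for WT, red for HNKO and circle, square and triangle for mouse 1, 2 and 3. All lines rise, and the Cyp2e1 lines of HNKO mice start at 395 to 635 CPM, below those of WT mice at 745 to 1153 CPM.

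The Glul-positive class was not the Central class. Of its 426 nuclei 238 (55.9%) lay in the Central clusters, and 61.0% of Central nuclei were Glul-positive. Outside the Central clusters 188 of 4020 nuclei (4.68%) were Glul-positive at the same depth, which is above the 1.82% of cholangiocyte nuclei but below the 5.26% of stellate, 6.25% of Kupffer, 7.91% of CD45+ and 10.6% of endothelial nuclei. With the Central nuclei left out, an alternative added after seeing the data, 3 genes were called in place of 290. Slc1a2 was still higher, by 1.92 on the log2 scale (SE 0.34, edgeR adjusted p = 6.02e-05), while Lgr5 (0.52, adjusted p = 0.950), Cyp2e1 (0.28, 0.949) and Gulo (0.38, 0.994) were not called. The stellate marker list moved with the class, at 45.5 to 352 CPM in Glul-positive and 21.0 to 170 CPM in Glul-negative nuclei with overlap between them, and its part in the result was not tested.

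Other genes of the zone and its opposite were taken from lists that were chosen with earlier results of these data known. Of all 4030 genes tested 4.12% were higher and 3.08% lower. Of 25 other pericentral genes 20 were tested, and 19 were higher in Glul-positive nuclei and none lower, with a median log2 fold change of 1.06. Lhpp, a phosphohistidine phosphatase, rose by 2.44 (SE 0.16, edgeR adjusted p = 4.23e-38), and the cytochromes P450 Cyp2c37 by 2.05 (SE 0.18, 4.85e-24) and Cyp2a5 by 1.87 (SE 0.23, 8.34e-13). Of 32 genes of the Wnt pathway 16 were tested, with 4 higher and 1 lower and a median of 0.02. Rnf43, a ubiquitin ligase that removes Wnt receptors, rose by 1.39 (SE 0.14, edgeR adjusted p = 1.93e-17), the Wnt co-receptor Lrp5 rose by 0.96 (SE 0.22, 0.000547) and the TCF factor Tcf7l1 fell by 1.22 (SE 0.27, 0.000240). Lrp5 was not called without the filter on low counts (0.72 on the log2 scale). With the Central nuclei left out none of the genes named here was called. The edgeR adjusted p was then 0.950 for Lhpp and Cyp2c37, 0.997 for Cyp2a5 and 0.994 for Rnf43, Tcf7l1 and Lrp5.

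The comparison of genotypes asked whether the knockout changed these genes over all hepatocyte nuclei of a mouse. In none of the 10 genes did the CPM of the 3 WT and 3 HNKO mice fail to overlap, against 12.4% of the 11810 genes tested. At an adjusted p under 0.05 (edgeR) 0 of the 10 genes and 0% of all genes tested were called, DESeq2 called 21 genes and none of the 10, and at an unadjusted p under 0.05 it was 2 of 10 against 5.91% of all genes (698). The median log2 fold change was 0.14 over the 10 genes and 0.02 over all.

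Cyp2e1 was at 1097, 726 and 1147 CPM in WT mice and at 481, 778 and 589 CPM in HNKO mice, a mean of 990 ± 230 against 616 ± 151 CPM (SD, n = 3 mice each). HNKO mouse 2 lay above WT mouse 2, and the log2 fold change was -0.84 (SE 0.30, edgeR adjusted p = 0.820, unadjusted p = 0.0231). Cyp1a2 was at 32.1, 26.1 and 33.1 CPM in WT and 20.5, 20.05 and 26.2 CPM in HNKO mice, 30.4 ± 3.78 against 22.2 ± 3.43 CPM. The groups met only at HNKO mouse 3 and WT mouse 2, and the log2 fold change was -0.62 (SE 0.18, edgeR adjusted p = 0.820, unadjusted p = 0.00930). With equal numbers of nuclei per mouse thinned to 1000 UMIs, which removes the difference in depth, the log2 fold changes were -0.87 for Cyp2e1 and -1.25 for Cyp1a2, both with an adjusted p of 0.898. Over all alternatives the adjusted p ran from 0.297 to 0.977 for Cyp2e1 and from 0.402 to 0.977 for Cyp1a2.

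The genes of ammonia handling did not separate the genotypes. Glul was at 123, 130 and 121 CPM in WT and 155, 151 and 118 CPM in HNKO mice, with a log2 fold change of 0.06 (SE 0.23, edgeR adjusted p = 0.965). Slc1a2 was at 291, 201 and 309 against 637, 382 and 280 CPM, with 2 HNKO mice above and 1 within the WT range (log2 fold change 0.60, SE 0.41, edgeR adjusted p = 0.830). Without HNKO mouse 1 its log2 fold change was 0.0748. Oat stayed at 1.14 to 5.01 CPM in all mice.

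Among the Wnt targets Lgr5 was at 86.8, 139 and 87.0 CPM in WT and 105, 76.2 and 87.3 CPM in HNKO mice (log2 fold change -0.36, SE 0.27, edgeR adjusted p = 0.837), and the value was -0.12 without WT mouse 2 and -0.61 without HNKO mouse 1. Tbx3 was at 3.69, 8.86 and 5.85 against 3.32, 6.35 and 38.8 CPM, and Axin2 at 2.55, 4.81 and 1.57 against 2.41, 2.84 and 10.0 CPM. In both genes HNKO mouse 3 alone stood above the WT mice. The log2 fold change of Tbx3 went from 1.06 with it to -0.39 without it and that of Axin2 from 0.51 to -0.19, none of them called.

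Slc22a3 rested on 1 mouse as well, at 13.1, 25.1 and 21.1 CPM in WT and 164, 19.2 and 10.2 CPM in HNKO mice. Its log2 fold change was 1.72 (SE 1.00, edgeR adjusted p = 0.820) and -0.64 without HNKO mouse 1. Gulo was at 50.2, 49.9 and 67.5 against 49.9, 45.9 and 99.7 CPM, a log2 fold change of 0.00 (SE 0.24). None of the other lists held a called gene. The log2 fold changes were positive for 7 and negative for 16 of 23 other pericentral genes (median -0.31) and positive for 15 and negative for 12 of 27 genes of the Wnt pathway (median 0.04).

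**Figure D4:**
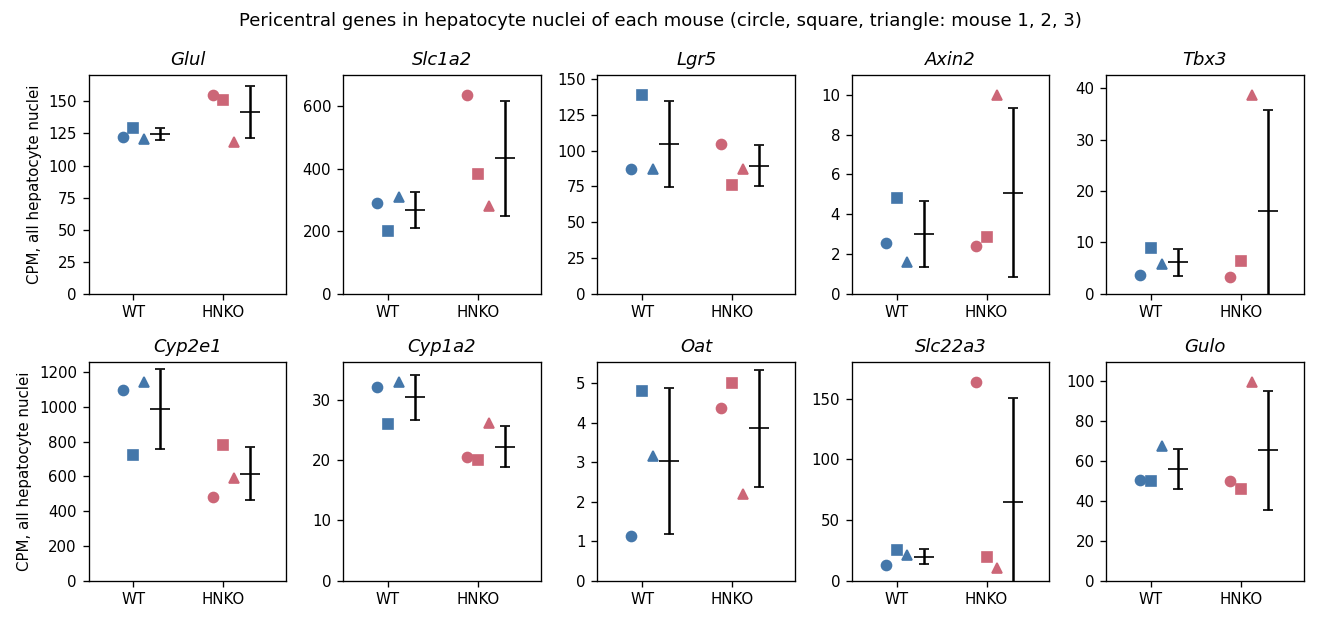
CPM of each pericentral gene over all hepatocyte nuclei of each mouse, WT in blue and HNKO in red, with circle, square and triangle for mouse 1, 2 and 3, and beside them the mean with SD (n = 3, bars drawn down to 0 at most). Tbx3 and Axin2 are high in HNKO mouse 3 (38.8 and 10.0 CPM), Slc22a3 in HNKO mouse 1 (164 CPM), and Cyp2e1 averages 990 CPM in WT and 616 CPM in HNKO mice.

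A sum over all hepatocytes mixes the level in a nucleus with the share of nuclei of a zone, so the genotypes were also compared within and outside the Central clusters. Hepatocyte nuclei numbered 562, 713 and 657 in WT and 812, 819 and 847 in HNKO mice. The clusters were built from these same nuclei and genes. Within and outside them, a shift of the Central border cannot be told apart from a change of level. The Central sums came from 39, 49 and 43 nuclei of WT mice and 100, 81 and 78 nuclei of HNKO mice. Of the 8 members that passed the filter there (Axin2 and Oat did not), 0 were called by edgeR or DESeq2, with 0% of 4306 genes called, and 0 had an unadjusted p under 0.05, against 2.76% of the genes (119). Lgr5 was at 639, 860 and 543 CPM in Central nuclei of WT mice and 476, 532 and 495 CPM in those of HNKO mice. All HNKO values lay below all WT values, which held for 1 of the 8 members and in either direction for 7.8% of genes, and the log2 fold change was -0.52 (SE 0.28, edgeR adjusted p = 1.000, unadjusted p = 0.0970). Markers of CD45+ cells moved with the genotype in these nuclei: all 5 of 5 had a UMI, and their sum was at 12.6 to 31.3 CPM in WT and 41.7 to 71.8 CPM in HNKO mice. None of these 5 markers passed the filter on low counts in Central nuclei, so the sums rest on few UMIs. Over all hepatocytes 4 of them were tested by genotype, with 2 positive and 2 negative log2 fold changes. The part of these markers in the Central values was not tested.

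Glul was at 1040, 1608 and 1236 CPM in Central nuclei of WT mice and 992, 1621 and 1199 CPM in those of HNKO mice. Slc1a2 was at 3404, 3943 and 4503 against 4424, 4418 and 3275 CPM. In both genes the groups overlapped nearly whole, with log2 fold changes of -0.11 (SE 0.31) and -0.03 (SE 0.31). Cyp2e1 was at 2503, 1991 and 2664 against 1313, 2509 and 1967 CPM (log2 fold change -0.41, SE 0.31), and Cyp1a2 at 154, 56.5 and 139 against 61.1, 88.3 and 123 CPM (-0.53, SE 0.37). Tbx3 spread from 3.85 to 185 CPM over the mice and Slc22a3 from 78.7 to 1155 CPM, and the log2 fold change of Slc22a3 turned from 0.63 to -1.19 without HNKO mouse 1. Gulo was at 158, 226 and 230 against 129, 184 and 380 CPM.

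Outside the Central clusters, in a comparison added after seeing the data and with the same limit on the cluster border, none of the genes was called. In 4 of the 8 members tested there the groups did not overlap, with Glul, Cyp2e1 and Cyp1a2 lower and Slc22a3 higher in HNKO mice, against 13.3% of 11532 genes in either direction. An unadjusted p under 0.05 was found for 3 of 8 members and 6.38% of genes (736), and an edgeR adjusted p under 0.05 for 0 members and 0% of genes. Cyp2e1 was at 986, 673 and 1042 CPM in WT and 348, 652 and 472 CPM in HNKO mice (log2 fold change -1.04, SE 0.31, edgeR adjusted p = 0.775). Cyp1a2 was at 22.4, 24.8 and 25.7 against 14.0, 15.1 and 18.0 CPM (-0.81, SE 0.17, adjusted p = 0.775, unadjusted p = 0.00158). Glul was at 49.6, 67.5 and 44.0 against 21.0, 43.9 and 26.1 CPM (-0.97, SE 0.32, adjusted p = 0.775).

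These low levels of Glul lie in the range of cells that are not hepatocytes, 19.6 to 110 CPM by cell type, and are not told apart from free RNA. Slc22a3, at 2.45, 2.11 and 3.37 against 5.77, 3.41 and 4.35 CPM, rested on 8 to 33 UMIs per mouse and was within the 1.51 to 10.6 CPM of those cell types. Cyp1a2 was within their pooled 1.44 to 15.8 CPM in HNKO mice 1 and 2 and above it in the other mice. Endothelial nuclei of 1 mouse reached 46.2 CPM of Cyp1a2. Cyp2e1 outside the Central clusters stood in every mouse above the 38.2 to 234 CPM of other cell types pooled over mice. HNKO mouse 1, at 348 CPM, was however below the 454 CPM of CD45+ nuclei in 1 mouse. Lgr5 was at 42.9, 109 and 55.5 CPM in WT and 45.1, 42.8 and 52.5 CPM in HNKO mice and overlapped (log2 fold change -0.72, SE 0.32, edgeR adjusted p = 0.775).

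Whether the tie to Glul differed between genotypes was tested as the interaction of class and genotype in the thinned nuclei. All 6 members tested had a positive interaction (median 0.64 on the log2 scale, against 0.03 over all genes), that is, a larger difference between Glul-positive and Glul-negative nuclei in HNKO mice. None was called by edgeR or DESeq2, with 0% of 4030 genes called, and 3 of 6 had an unadjusted p under 0.05, against 5.36% of genes (216). Slc22a3 passed the filter through Glul-positive sums alone, and its interaction ran from -0.18 to 0.58 with 1 mouse left out. Cyp1a2 passed through 5 Glul-positive sums and 1 Glul-negative sum, with 2 to 12 UMIs in each Glul-positive sum. For Cyp2e1 the positive to negative ratio was 1.44, 1.99 and 1.65 in WT mice and 2.56, 2.88 and 3.24 in HNKO mice, all HNKO ratios above all WT ratios. The difference was 0.82 on the log2 scale (SE 0.18, edgeR adjusted p = 0.0546), the smallest p of all genes tested.

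This value lay at the threshold and moved across it with the processing. The adjusted p of Cyp2e1 ran from 0.00143 to 1.00 over the alternatives and was 0.0125 without WT mouse 2 and 0.0250 without HNKO mouse 1. For Slc1a2 the ratio was 6.08, 13.5 and 12.6 in WT and 13.4, 18.3 and 23.2 in HNKO mice, a difference of 0.79 on the log2 scale (SE 0.21, edgeR adjusted p = 0.221), with adjusted p of 0.0125 without WT mouse 2 and 0.0451 without HNKO mouse 1. Cyp1a2 had an interaction of 1.42 (SE 0.70, edgeR adjusted p = 0.927), and Lgr5 (0.49), Slc22a3 (0.36) and Gulo (0.35) had smaller ones. The share of Glul-positive nuclei that lay in the Central clusters moved with genotype, at 36.4%, 48.0% and 39.3% in WT and 71.8%, 59.6% and 69.0% in HNKO mice. With the Central nuclei left out, the interaction of Cyp2e1 was 0.29 (SE 0.30, edgeR adjusted p = 0.999).

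The last measure was the share of hepatocyte nuclei with a UMI of each gene at 1000 UMIs per nucleus, set against nuclei of endothelial, stellate, Kupffer and CD45+ cells at the same depth. With 3 mice against 3 an exact permutation test cannot give a p below 0.1, so values are given without a test. Of the 8 members with a mean share of at least 1%, 1 was higher in all HNKO mice than in all WT mice, against 9.53% of 7190 genes, and 2 were lower, against 2.07% of genes. Slc1a2 was found in 10.9%, 10.5% and 8.52% of WT and 13.5%, 13.1% and 11.1% of HNKO hepatocyte nuclei, with 3.51% to 5.65% in the other cell types. Cyp2e1 was found in 44.5%, 41.9% and 52.7% of WT and 28.3%, 39.3% and 35.8% of HNKO nuclei, with 4.68% to 18.4% in the other cell types. The mean difference of Cyp2e1 was -11.9 percentage points, and -4.70 in unthinned nuclei, where HNKO nuclei are deeper. At 2000 UMIs per nucleus Cyp2e1 still separated the groups. Slc1a2 did not, with HNKO mouse 3 at 12.1% and WT mouse 1 at 12.8%.

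Cyp1a2 was found in 3.02%, 3.09% and 3.50% of WT and 0.862%, 1.71% and 2.95% of HNKO nuclei, and HNKO mouse 1 lay within the 0% to 1.63% of other cell types. At 2000 UMIs per nucleus its groups overlapped, with HNKO mouse 3 at 4.91% and WT mouse 2 at 4.57%. They also overlapped in unthinned nuclei, where these mice were at 11.7% and 10.9%. Glul (7.83%, 10.5% and 9.28% against 8.74%, 12.7% and 8.38%) was within or near its background of 5.26% to 10.6%. Its nuclei were concentrated, with 61.0% of Central and 4.68% of other hepatocyte nuclei positive. For Lgr5 the shares were 5.34%, 10.4% and 6.24% against 7.02%, 7.08% and 7.79%, above a background of 1.17% to 2.26% in every mouse. Tbx3 stood out in HNKO mouse 3 with 5.43% against 0.356% to 1.12% in the other mice. Apart from WT mouse 2, those other mice lay within its background of 0% to 0.816%. Slc22a3 stood out in HNKO mouse 1 with 4.93% against 0.356% to 2.20% in the other mice. At 2000 UMIs per nucleus all its HNKO shares (2.64% to 8.10%) lay above its WT shares (1.26% to 2.28%). Gulo ran from 4.68% to 9.21% over all mice. In unthinned nuclei the mean shares of WT and HNKO mice were 23.6% and 22.5% for Glul, 15.4% and 18.9% for Slc1a2, 18.7% and 21.5% for Lgr5, 68.4% and 63.7% for Cyp2e1 and 12.1% and 10.8% for Cyp1a2.

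In Central nuclei Slc1a2 was the most widely found, in 93.3% against 3.46% of other hepatocyte nuclei, followed by Cyp2e1 (82.6% against 35.5%). The shares were 36.7% against 4.55% for Lgr5, 21.3% against 4.98% for Gulo and 20% against 0.448% for Slc22a3. Tbx3 (7.69% against 1.04%), Cyp1a2 (6.92% against 2.01%), Axin2 (3.08% against 0.348%) and Oat (2.05% against 0.174%) were found in few nuclei at this depth. Oat was found in 0 of 562 nuclei of WT mouse 1, which allows a share with a UMI of up to 0.534% (3 nuclei of 562) and does not limit the share that expresses Oat, and Axin2 and Oat were within the range of the other cell types in most mice.

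**Figure D5:**
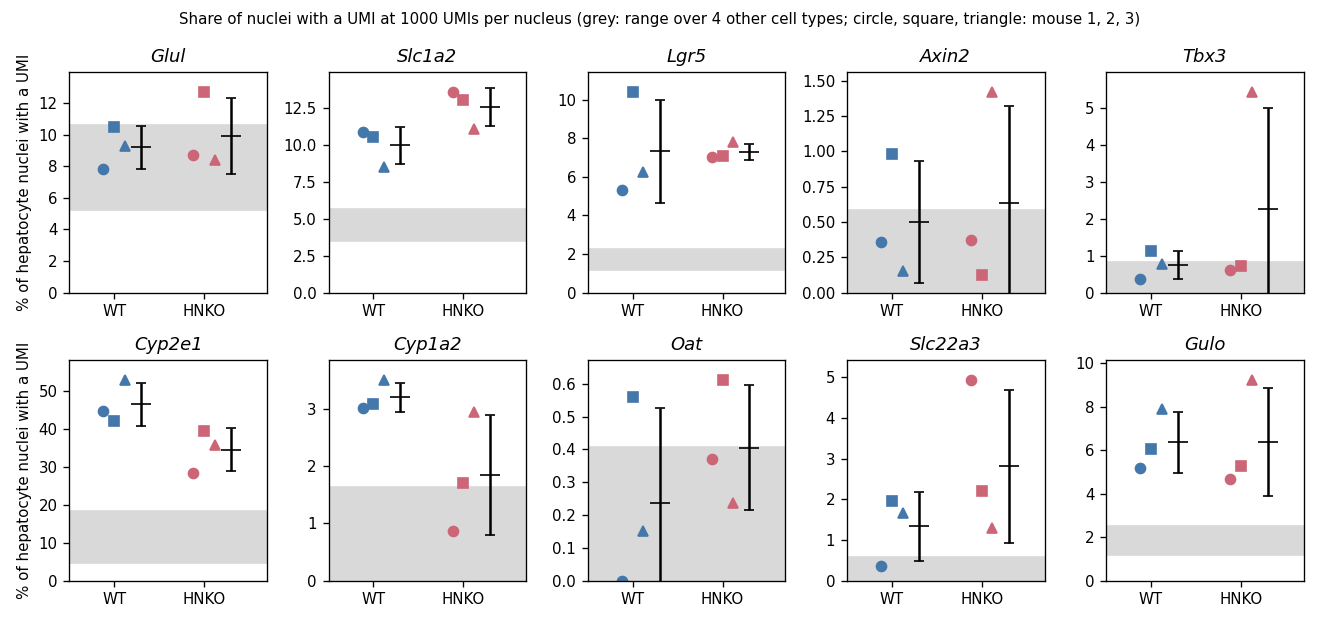
Percent of hepatocyte nuclei with at least 1 UMI of each gene, all nuclei thinned to 1000 UMIs, by mouse (WT blue, HNKO red, circle, square and triangle for mouse 1, 2 and 3), beside the mean with SD (n = 3, bars drawn down to 0 at most), with a grey band for the range over endothelial, stellate, Kupffer and CD45+ nuclei. At this depth Slc1a2 is higher and Cyp2e1 and Cyp1a2 are lower in all HNKO mice than in all WT mice, and Glul lies in or close to its grey band. At 2000 UMIs per nucleus the groups of Slc1a2 and of Cyp1a2 overlap.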

How the data were processed

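The authors sequenced pooled liver nuclei with a 10x 3′ kit, called mice from hashtags and deposited estimated UMI counts per gene and nucleus (expected counts, not normalized, spliced and unspliced reads summed; Cell Ranger 5.0.1 and Alevin on GRCm38 per the labels' processing notes and the study's methods). They removed hashtag negatives and multiplets and nuclei with very many detected genes, and named the clusters. Of the nonzero values 10.1% were not within 0.001 of a whole number, as Alevin shares reads between genes, and fractions were rounded to whole counts per sum or, for thinning, per nucleus. Hashtag counts and SCTransform values were not used.

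Counts were summed per mouse (at least 10 nuclei) and tested with edgeR 4.0.16 (quasi-likelihood, filterByExpr, TMM, Benjamini-Hochberg over all genes tested, threshold 0.05). CPM are UMIs scaled to a total of 1000000 per sum, without TMM. Alternatives were DESeq2 1.42.0, RLE size factors, no filter, thinning to 2000 UMIs, and leaving out each mouse. On simulated counts with 200 genes changed by a log2 fold change of 2, the test recovered 87.5% (all hepatocytes, 11810 genes), 71% (Central, 4306 genes), 93.5% (Glul classes, 4031 genes) and 69% (interaction, 4031 genes). False calls numbered 16, 12, 4 and 3 in that order. Smaller changes were not simulated, so the recovery of genotype differences below that size is not known. The Glul row was left out of the adjustment in both Glul comparisons, since it defined the classes. The members and the lists (other pericentral, Wnt pathway, periportal) were chosen with earlier results of these data known. Named from each list were up to 3 called genes with the largest change per comparison, and for likeness the 5 genes with the highest r with Glul and with Cyp2e1. Nuclei of 1 mouse are not replicates, and mouse is the replicate throughout. Intervals and limits on shares cover counting error only. Promoters are RefSeq, and gene positions are from the GRCm38 GENCODE annotation used here. Python 3.11.15 and R 4.3.3 were used.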

Additional observations from a re-analysis of the deposited data

How the results depend on the processing

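Each mouse gave both Glul classes, so mouse is the pairing. Without it as a replicate block 30 genes in place of 290 were called between the classes, and Cyp2e1 (1.08), Cyp1a2 (1.87), Cyp2c37 (1.96), Cyp2a5 (1.75), Tcf7l1 (-1.16), Lrp5 (0.96), Sds (-1.42) and Cyp2f2 (-1.32) were no longer called. The pool numbers in the labels are not mice and paired nothing. DESeq2 called 174, 2000 UMIs per nucleus 455, leaving out the Central nuclei 3, and leaving out 1 mouse 199 to 260 genes. The genotype comparison over all hepatocytes gave 21 calls with DESeq2, 35 without the filter and 0 to 32 without 1 mouse (32 without HNKO mouse 2). Central nuclei gave 18 without the filter and 0 to 0 without 1 mouse. The interaction gave 1 call with RLE size factors, 1 without the filter, 6 at 2000 UMIs and 0 to 3 without 1 mouse (3 without WT mouse 2). Shares that did not overlap numbered 3 to 5 without 1 mouse (5 without WT mouse 2). The sign turned for Gulo over all hepatocytes (-0.0104 with DESeq2 and with RLE, -0.0381 with equal numbers of thinned nuclei, -0.14 outside Central), for Glul outside Central (-0.97), for Slc1a2 in Central nuclei without the filter (0.0338), and, without the Central nuclei, for Cyp2a5 between the classes (-0.0200) and Gulo in the interaction (-0.82). Leaving out 1 mouse gave log2 fold changes over all hepatocytes of -0.12 to 0.29 for Glul, -0.19 to 1.02 for Axin2, -0.39 to 1.50 for Tbx3, -0.13 to 0.68 for Oat, -0.64 to 2.25 for Slc22a3 and -0.24 to 0.16 for Gulo. In Central nuclei they were -0.33 to 0.0482 for Glul, -0.20 to 0.17 for Slc1a2, -1.19 to 1.24 for Slc22a3 and -0.40 to 0.25 for Gulo, and in the interaction -0.18 to 0.58 for Slc22a3. Apart from calls lost or gained through fewer nuclei, mice or genes tested, the cause was not tested. Axin2, Tbx3 and Oat have too few UMIs per nucleus to pass the filter between the Glul classes.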

Other observations

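Genes of the opposite, periportal zone were lower in Glul-positive nuclei. Of 19 such genes, from a list chosen with earlier results known, 14 were tested. Of these 11 were lower and 0 higher, against 3.08% and 4.12% of all genes, with a median log2 fold change of -0.98. Hsd17b13, a lipid droplet enzyme, fell by 1.68 (SE 0.22, edgeR adjusted p = 1.05e-11), Sds, which breaks down serine, by 1.41 (SE 0.16, 3.25e-15) and the cytochrome P450 Cyp2f2 by 1.33 (SE 0.30, 0.000373), each in 6 of 6 mice. None of these 3 was called with the Central nuclei left out, where the adjusted p was 0.239, 0.464 and 0.950. By genotype 0 of 19 periportal genes were called over all hepatocytes (4 positive, 15 negative, median -0.28) and 0 of 7 in Central nuclei (median -0.18). In Central nuclei 0 of 21 other pericentral genes (median -0.28) and 0 of 16 genes of the Wnt pathway (median 0.17) were called, and in the interaction 0 of 20 (median 0.42), 0 of 16 (0.20) and, of the periportal genes, 0 of 14 (-0.12).

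Outside hepatocytes, endothelial nuclei had the highest pooled level of Slc1a2 (127 CPM) and Glul (110 CPM), and Kupffer nuclei of Lgr5 (44.0 CPM), on 120, 104.5 and 13.2 UMIs. Summed markers of other cell types in hepatocyte nuclei of WT and HNKO mice were at 28.4 to 36.6 and 31.7 to 41.9 CPM for endothelial, 39.4 to 88.6 and 30.6 to 194 CPM for stellate, 5.40 to 9.93 and 6.93 to 12.7 CPM for Kupffer, 17.9 to 22.0 and 20.05 to 32.3 CPM for CD45+ and 7.64 to 14.7 and 8.35 to 40.2 CPM for cholangiocyte markers, with Krt19 at 0.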
